A study of Mus musculus with 12 samples.

Results

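Endothelial cells line all blood vessels, and 10 genes that mark their identity were followed here in mouse kidney cortex: Pecam1, Cdh5, Tek, Tie1, Emcn, Ehd3, Plvap, Erg, Cldn5 and Eng. They were chosen by name, as mouse Ensembl gene IDs that map to these symbols, and make up 10 of the 27412 genes in the count table. All 10 had a row and all 10 passed the filter on low counts. RNA of a thin outer slice of cortex came from untreated male C57BL/6 mice, either wild type (WT, animals 1, 2 and 3) or carrying the transgene GGT-HIF2αM3 (here HIF2aM3, animals 17-51, 17-53 and 17-56), with 2 kidneys sequenced per animal. The comparison asks how the cortex differs when a HIF2α transgene, driven by the γ-glutamyl transferase (GGT) promoter of proximal tubule cells, is present. The labels state no ages. They also do not say whether the prefix 17 marks a single transgenic line, in which case line and transgene cannot be told apart. HIF2α is one of the transcription factors through which cells respond to low oxygen.

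The identity of endothelium rests on a few transcription factors, among them the ETS family member ERG, which keep junction, receptor and surface genes active. VE-cadherin (Cdh5) and claudin 5 (Cldn5) join neighbouring cells, TIE2 (Tek) receives angiopoietins, and endoglin (Eng) receives ligands of the BMP and TGF-β family. In the kidney, endothelium forms the fenestrated glomerular capillaries, the peritubular capillaries that surround the tubules, and the larger vessels. PLVAP forms the diaphragms of fenestrae in peritubular capillaries, and EHD3 is known as a marker of glomerular endothelium.

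RefSeq promoter sequences (build GRCm38.p6) were at hand for 7 of the 10 genes, in 9 entries, since Erg has 3 starts. The 250 bases before the start are printed for the pair of genes that passed the test below (Emcn and Erg), for the angiopoietin receptor Tek, and for Cldn5, the gene with the smallest difference. Capitals mark core motifs of ETS factors (CCGGAA or CAGGAA) and of hypoxia-inducible factors (ACGTG or GCGTG), searched on both strands. The Emcn sequence is chr3:137340828-137341077 on the plus strand, that of Erg chr16:95459349-95459598 on the minus strand (the entry that holds a motif), that of Tek chr4:94739039-94739288 on the plus strand and that of Cldn5 chr16:18776597-18776846 on the plus strand. The reads were aligned to another build, mm9, and counts per gene do not show which start was used.
Emcn: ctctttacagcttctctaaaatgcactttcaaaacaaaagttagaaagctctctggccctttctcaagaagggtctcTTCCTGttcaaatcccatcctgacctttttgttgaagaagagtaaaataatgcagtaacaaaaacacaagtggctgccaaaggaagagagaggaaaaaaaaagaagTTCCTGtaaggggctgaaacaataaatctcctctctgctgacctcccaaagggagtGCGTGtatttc
Erg: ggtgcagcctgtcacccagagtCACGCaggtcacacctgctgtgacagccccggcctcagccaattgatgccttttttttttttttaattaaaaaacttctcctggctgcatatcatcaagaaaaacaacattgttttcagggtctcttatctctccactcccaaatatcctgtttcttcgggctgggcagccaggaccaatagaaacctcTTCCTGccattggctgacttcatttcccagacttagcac
Tek: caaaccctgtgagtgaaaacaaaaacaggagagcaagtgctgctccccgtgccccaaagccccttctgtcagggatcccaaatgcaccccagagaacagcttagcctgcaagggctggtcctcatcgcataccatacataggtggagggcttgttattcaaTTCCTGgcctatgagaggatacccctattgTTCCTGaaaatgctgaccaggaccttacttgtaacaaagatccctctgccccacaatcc
Cldn5: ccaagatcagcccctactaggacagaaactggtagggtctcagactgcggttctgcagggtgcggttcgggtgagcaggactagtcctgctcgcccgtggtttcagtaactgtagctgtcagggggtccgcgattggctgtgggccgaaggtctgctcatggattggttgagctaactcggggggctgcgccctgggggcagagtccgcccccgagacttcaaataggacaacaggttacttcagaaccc
In Emcn an ETS motif begins 173 and another 67 bases before the start, both on the minus strand, and the hypoxia motif GCGTG begins 11 bases before it. Tek holds ETS motifs at 89 and 59 bases before the start and no hypoxia motif. The Erg entry holds an ETS motif at 39 and a hypoxia motif at 228 bases before the start, and the other Erg entries hold neither. Cldn5 holds neither. Counted over the 300 bases of each entry, from 250 before to 50 after the start, an ETS motif was found in 6 of the 9 entries (66.7%) and in 41.4% of 32851 promoters. A hypoxia motif was found in 3 of the 9 entries (33.3%) and in 43.8% of all promoters. These matches describe letters, not binding.

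Across the genes the fitted difference between genotypes was above 0 for all 10, but only Erg and Emcn rose past the threshold. Their log2 fold changes were 0.62 ± 0.119 (SE) and 0.57 ± 0.116, with edgeR adjusted p = 0.0412 and 0.0458. None fell, and 8 did not pass, 6 of the 10 having an unadjusted p below the threshold of 0.05. No share of all genes at that unadjusted cut is given, here or for the lists below, so such counts have no background. Over all 19564 genes tested, 1.93% were called higher in HIF2aM3 and 1.82% lower. The median log2 fold change of the 10 genes was 0.35, beside a median of 0.005 over all genes, of which 50.9% lay above 0. For 5 of the 10 (Erg, Emcn, Tek, Cdh5 and Pecam1) all 3 HIF2aM3 animals lay above all 3 WT animals, which held for 15.5% of all genes, while the reverse held for 16.5% of all genes and for none of the 10. The WT animals differed among themselves, and animal WT 2 was the highest of the 3 for every one of the 10 genes. Without WT 2, 8 of the 10 genes were called higher (all but Plvap and Cldn5), as were 4.64% of all genes tested. Without any 1 of the other 5 animals, 0 were called by edgeR, with adjusted p values of 0.0977 to 0.141 for Emcn and 0.0944 to 0.133 for Erg. With DESeq2, 6 of the 10 were called higher, beside 5.61% of all genes, and with library size alone as the scaling 0 were. In whole tissue, a difference in the number of cells of a type and one in RNA per cell cannot be told apart. These values therefore do not say which differed.

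**Figure D1:**
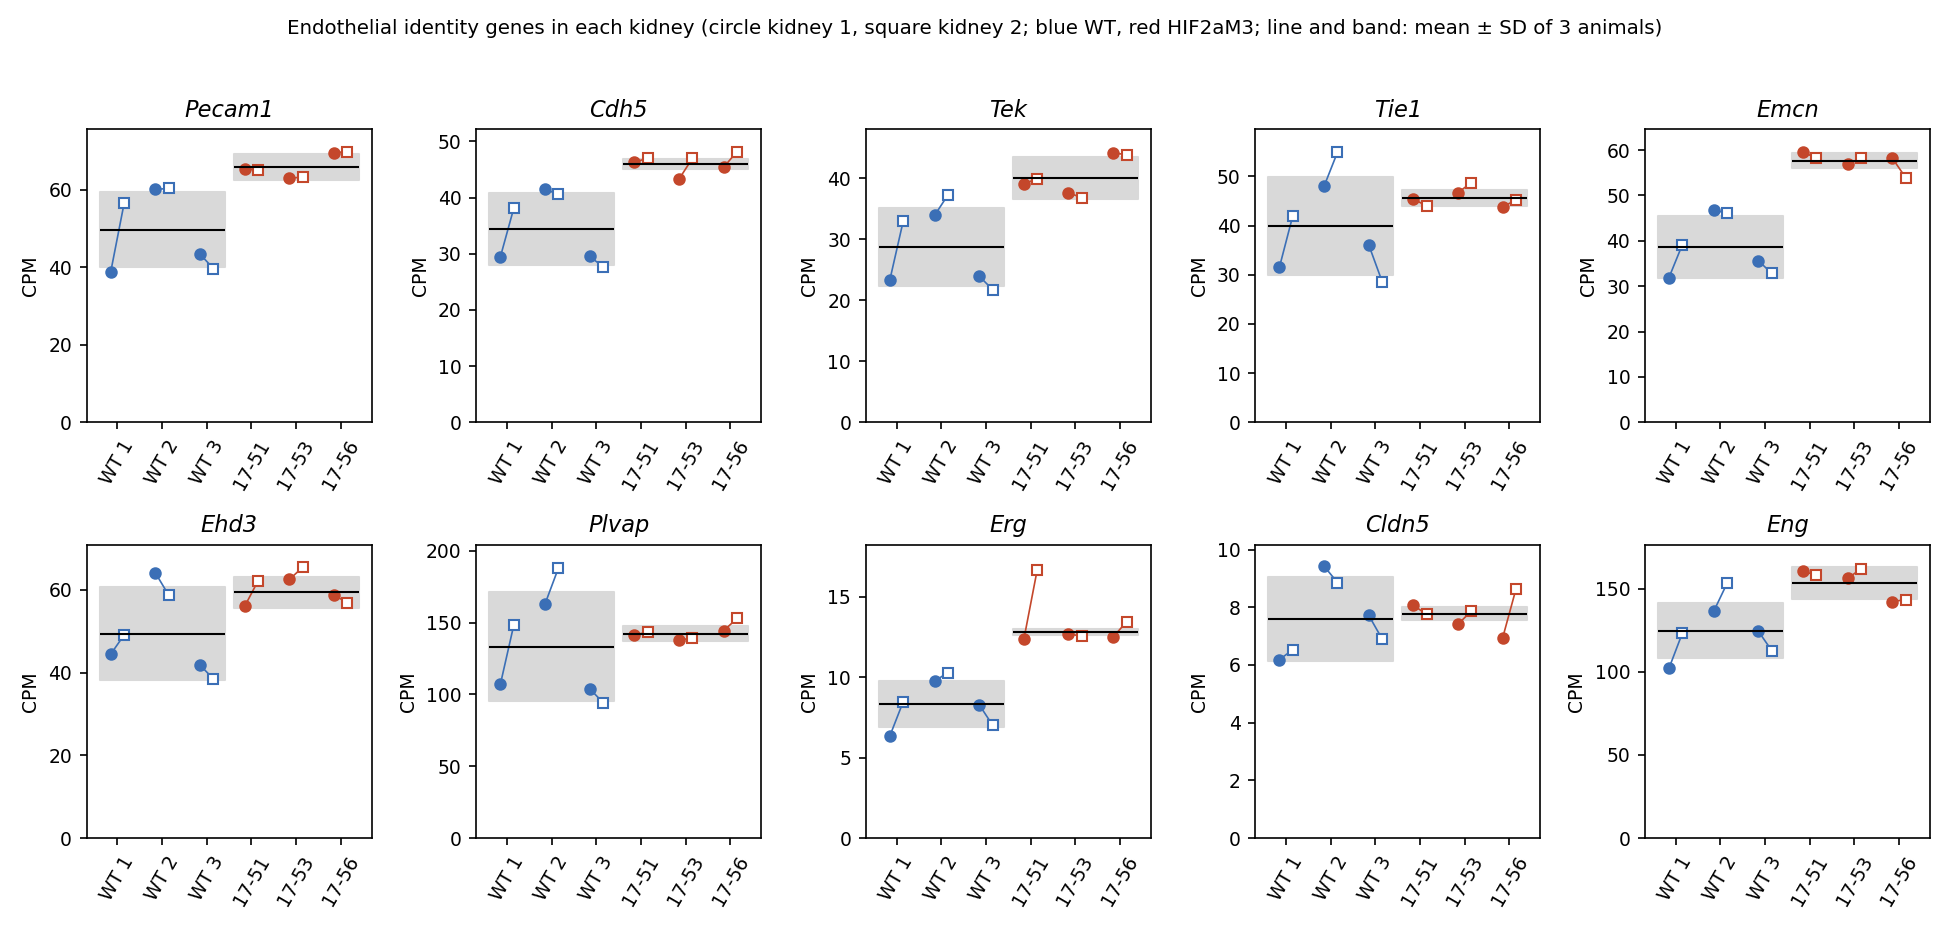
Counts scaled to library size corrected by TMM factors (CPM) of each gene in the 12 libraries. Kidney 1 is a filled circle and kidney 2 an open square of the same animal, with WT in blue and HIF2aM3 in red. Lines and bands give the mean ± SD of 3 animals. The HIF2aM3 animals lie close together, while WT 2 lies above WT 1 and WT 3 in every panel, and for Erg 1 kidney of animal 17-51 stands at 16.68 CPM.

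Erg encodes the transcription factor of the group. Its level was 7.42, 9.98 and 7.58 CPM in WT animals 1, 2 and 3 and 12.9, 12.6 and 12.9 CPM in animals 17-51, 17-53 and 17-56. The groups did not overlap, and with the kidneys summed the HIF2aM3 animals differed from each other by far less than the WT animals did. The means were 8.33 ± 1.44 (SD, n = 3) and 12.8 ± 0.196, a 1.53-fold difference. Among the 12 single kidneys, the 6 of WT animals ran from 6.35 to 10.29 CPM (median 8.39) and the 6 of HIF2aM3 animals from 12.35 to 16.68 CPM (median 12.62). The highest of these came from the shallow second kidney of 17-51, which has little weight in the summed counts. With the kidneys averaged as RPKM instead, the SDs of Erg were 0.0875 in WT and 0.0569 in HIF2aM3. Without that library the log2 fold change of Erg was 0.60 ± 0.12 with edgeR adjusted p = 0.0451.

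The junction and adhesion genes did not move alike. Cdh5, whose product VE-cadherin holds endothelial cells together, stood at 33.8, 41.1 and 28.4 CPM in the WT animals and at 46.4, 44.9 and 46.5 CPM in the HIF2aM3 animals. The groups did not overlap, yet the log2 fold change of 0.41 ± 0.123 had edgeR adjusted p = 0.101. Pecam1, the adhesion molecule CD31 that platelets and leukocytes also carry, stood at 47.8, 60.1 and 41.2 CPM in WT and at 65.3, 62.8 and 69.4 CPM in HIF2aM3. Here too the lowest HIF2aM3 animal lay above WT 2, though by little, and the log2 fold change was 0.41 ± 0.131 with edgeR adjusted p = 0.121. Of 7 platelet genes 5 were tested, with 0 called by edgeR or DESeq2 and 0 at an unadjusted p under 0.05. All 7 together summed to 10.79 to 13.32 CPM in WT and 10.31 to 11.66 CPM in HIF2aM3, and the part of blood cells in the Pecam1 value was not tested. Cldn5, the tight junction claudin of endothelium, stood at 6.35, 9.18 and 7.26 CPM in WT and at 8.03, 7.60 and 7.68 CPM in HIF2aM3. All 3 HIF2aM3 values lay within the WT range, and the log2 fold change was 0.03 ± 0.134 (edgeR adjusted p = 0.92). Its sign was not stable: without WT 1 the log2 fold change was -0.0915, and it was also below 0 without WT 3 or without 17-51.

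Among the receptors, Tek showed the largest difference. It encodes TIE2, the receptor of the angiopoietins, and stood at 28.2, 35.4 and 22.7 CPM in WT and at 39.2, 37.0 and 43.9 CPM in HIF2aM3. The groups did not overlap, and the log2 fold change was 0.48 ± 0.156 with edgeR adjusted p = 0.126. Tie1, the related receptor that pairs with TIE2, stood at 36.8, 51.0 and 32.0 CPM in WT and at 45.3, 47.5 and 44.3 CPM in HIF2aM3. WT 2 was the highest of the 6 animals, and the log2 fold change of 0.19 ± 0.16 did not pass (edgeR adjusted p = 0.493). Eng, the co-receptor endoglin, stood at 112.8, 143.8 and 117.9 CPM in WT and at 160.3, 158.4 and 142.5 CPM in HIF2aM3. WT 2 lay just above animal 17-56, so the groups overlapped, and the log2 fold change was 0.30 ± 0.0991 with edgeR adjusted p = 0.123. Eng shares 61 exon bases with Fpgs on the opposite strand, and no source used here states whether strand was used in counting.

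The surface and membrane genes held 1 gene that passed, Emcn, and 2 that did not. Emcn encodes endomucin, a sialomucin of capillary and venous endothelium, and stood at 35.5, 46.5 and 34.0 CPM in WT and at 59.4, 57.2 and 56.2 CPM in HIF2aM3. No WT kidney exceeded 46.87 CPM and no HIF2aM3 kidney was below 53.95 CPM. The means were 38.7 ± 6.81 (SD, n = 3) and 57.6 ± 1.65 CPM, a 1.49-fold difference. Ehd3, a membrane trafficking protein, stood at 46.8, 61.7 and 39.9 CPM in WT and at 56.9, 63.7 and 57.8 CPM in HIF2aM3. The groups overlapped through WT 2, and the log2 fold change was 0.27 ± 0.151 (edgeR adjusted p = 0.319). Plvap stood at 127.6, 173.9 and 98.5 CPM in WT and at 141.7, 137.9 and 147.6 CPM in HIF2aM3. The WT animals lay on both sides of the HIF2aM3 animals, and the log2 fold change was 0.09 ± 0.187 (edgeR adjusted p = 0.793). Without WT 3 it was -0.0886.

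**Figure D2:**
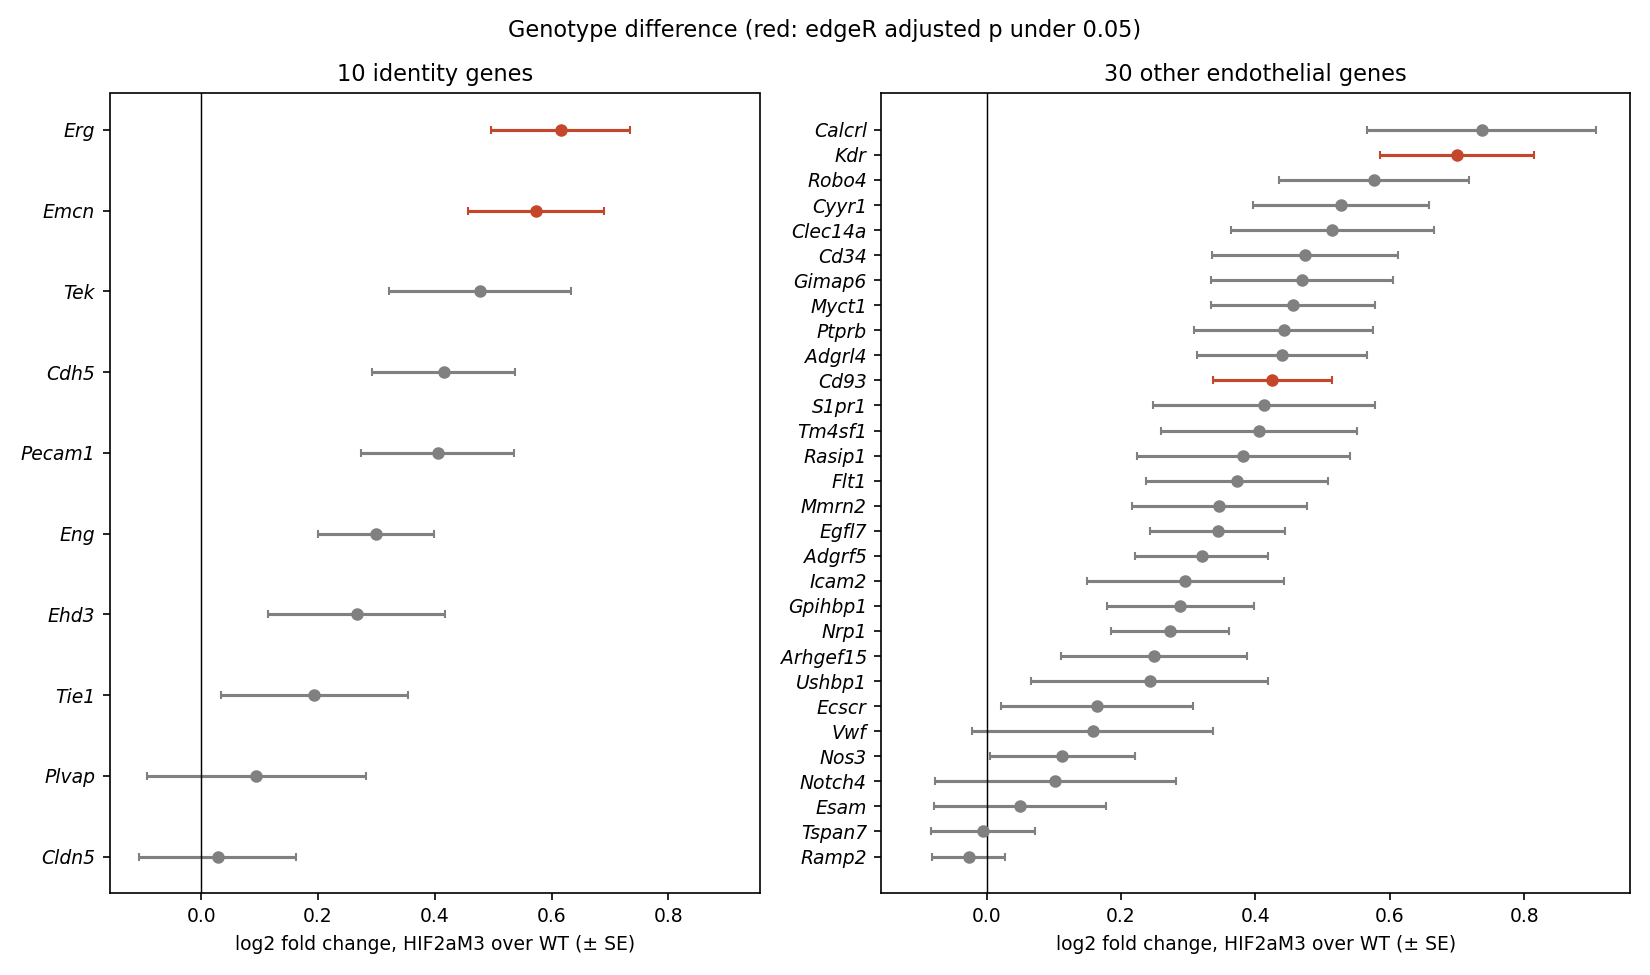
Log2 fold change, HIF2aM3 over WT, with its SE (3 animals per genotype) for the 10 identity genes and for 30 other endothelial genes. Red marks an edgeR adjusted p under 0.05: Erg and Emcn on the left, Kdr and Cd93 on the right. Of the 40 genes, only Ramp2 and Tspan7 lie below 0.

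The authors' deposited table gives q = 0.00767 for Emcn, 0.0111 for Erg, 0.0374 for Cdh5 and 0.0494 for Tek. Whether its q-values treat the 12 libraries or the animals as replicates is not stated in the sources used. In the authors' deposited table Pecam1 has q = 0.0584, Eng 0.0655, Ehd3 0.148, Tie1 0.407, Plvap 0.589 and Cldn5, at the other end, q = 0.694. The share of all genes with such q-values is not given here. The kidneys of an animal are not independent. If the libraries served as replicates, these q-values rest on more replicates than there were animals.

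Per length, the deposited RPKM (reads scaled to gene length and library size) put Plvap far above the others, at 59.9 ± 19.0 (SD, n = 3) in WT and 64.9 ± 2.5 in HIF2aM3. Ehd3 followed at 12.2 ± 3.05 and 15.1 ± 0.776 RPKM, then in WT Eng at 8.12 ± 1.34 and Cdh5 at 7.77 ± 1.64 RPKM. The WT ranges of Ehd3 and Eng overlapped, as did those of Eng and Cdh5. Cldn5 (4.85 ± 1.03), Emcn (4.24 ± 0.866), Tie1 (3.24 ± 0.906), Pecam1 (2.55 ± 0.565) and Tek (1.89 ± 0.474 RPKM) came next in WT, each range overlapping that of its neighbour. Within each WT animal the order was the same in 3 of 3 animals for every neighbouring pair but Eng and Cdh5, where it held in 2 of 3, so the overlaps otherwise come from comparing one animal with another. Erg was lowest, at 0.434 ± 0.0875 RPKM in WT and 0.707 ± 0.0569 RPKM in HIF2aM3, apart from all others. In HIF2aM3 the order was the same but for exchanges of Eng with Cdh5 (10.1 ± 0.598 and 10.6 ± 0.246 RPKM, ranges overlapping) and of Cldn5 with Emcn (5.08 ± 0.127 and 6.39 ± 0.155 RPKM, ranges apart). Emcn thus stood above Cldn5 in every HIF2aM3 animal.

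Since WT 2 was high for all 10 genes, each gene was also set against the mean log2 CPM of the other 9 in the same animal. On this scale Erg was higher in HIF2aM3 by 0.31 and Emcn by 0.26, with no overlap between the genotypes. Cldn5 and Plvap lay lower, with differences of -0.34 and -0.25 (log2), again with no overlap, although for Plvap WT 3 and animal 17-56 were nearly equal. The other 6 overlapped, between -0.15 for Tie1 and 0.16 for Tek. No share of all genes on this scale is given. The differences of the 10 genes sum to 0 by construction, so some must lie below 0 when others lie above. These values describe unequal change within the set and do not show that any gene was steady.

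**Figure D3:**
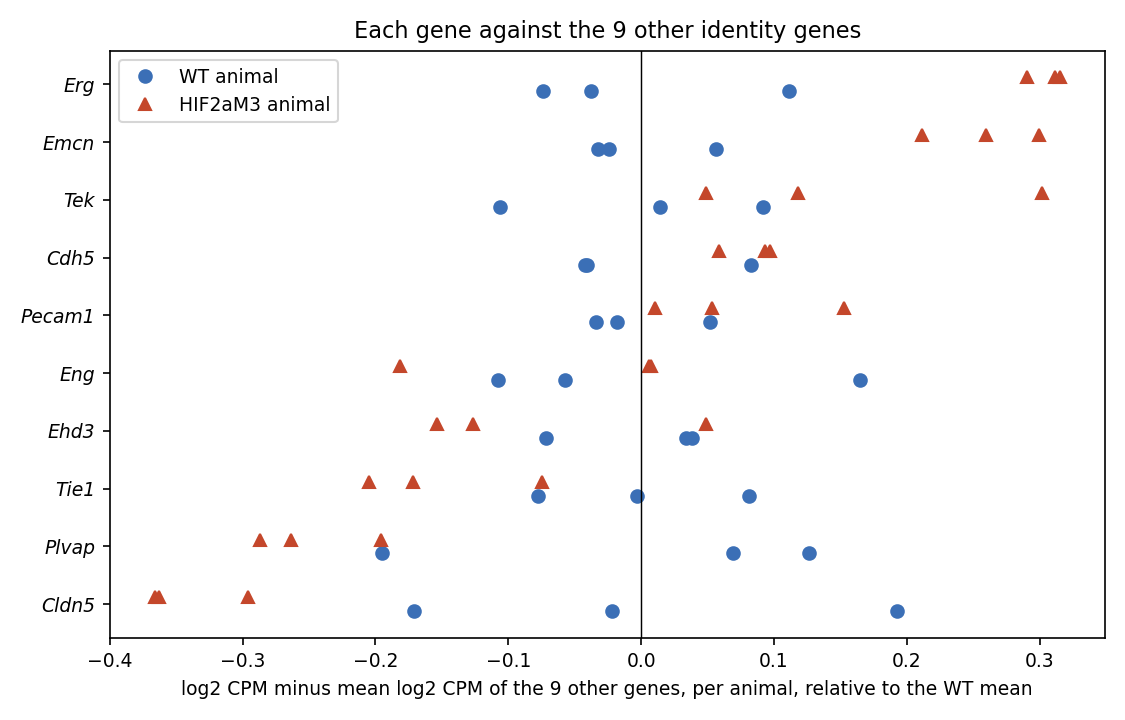
Log2 CPM of each gene minus the mean of the other 9 in the same animal, set to a WT mean of 0, for 3 WT animals (circles) and 3 HIF2aM3 animals (triangles). Erg and Emcn lie to the right in all HIF2aM3 animals and Cldn5 and Plvap to the left, and the other genes overlap between the genotypes.

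The spread between animals was itself unequal. With both kidneys summed, the coefficient of variation of CPM over 3 WT animals ran from 13.3% (Eng) to 28.5% (Plvap), and over 3 HIF2aM3 animals from 1.53% (Erg) to 8.76% (Tek). The shallow library, where Erg was highest, has little weight in these sums. For all 10 genes the SD of log2 CPM was larger among WT animals, with medians of 0.272 and 0.0504, whereas over 16054 genes of at least 1 CPM the medians were 0.101 and 0.0897 and WT was the larger for 56.8%. The same was seen for 29 of 30 other endothelial genes (medians 0.271 and 0.0921), for 11 of 12 podocyte genes (0.271 and 0.0603) and for 11 of 11 leukocyte genes of that level (0.617 and 0.204), but for 6 of 12 proximal tubule genes (0.105 and 0.106).

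In sum over the 10 genes, WT 1 held 483.1, WT 2 632.7 and WT 3 429.5 CPM, and animals 17-51, 17-53 and 17-56 held 635.5, 629.6 and 628.8 CPM. On this sum WT 2 thus lay within the range of the HIF2aM3 animals, and the lower WT mean came from WT 1 and WT 3. The sum gives most weight to abundant genes such as Plvap, at 173.9 CPM in WT 2. With each gene weighted alike, as the mean centred log2 CPM of the 10 genes, WT 2 stood at 0.13. The HIF2aM3 animals then all lay above it, at 0.17 to 0.19, and WT 1 and WT 3 stood at -0.27 and -0.40. WT 2 was also the highest WT animal for 28 of 30 other endothelial genes, 12 of 12 podocyte genes and 11 of 12 leukocyte genes, and for 35.8% of all genes. The 12 podocyte genes, which mark the cells that cover glomerular capillaries, summed to 685.5, 867.3 and 627.2 CPM in WT and 732.0, 738.6 and 725.1 CPM in HIF2aM3. None of the podocyte genes was called by edgeR, 1 had an unadjusted p under 0.05 and DESeq2 called 1 (Magi2 had the smallest p, 0.29 ± 0.0795, edgeR adjusted p = 0.0805), and their median log2 fold change was -0.01. The ratio of the summed identity genes to the summed podocyte genes, a measure chosen after the values were seen, was 0.705, 0.729 and 0.685 in WT and 0.868, 0.852 and 0.867 in HIF2aM3. On that measure WT 2 lay with the other WT animals and apart from HIF2aM3. Sums follow abundant genes, and Podxl alone held 317.9 of the 685.5 CPM of podocyte genes in WT 1. Gene by gene, against the mean log2 CPM of the podocyte genes, the separation was not shared by all. Erg, Emcn, Tek, Pecam1, Cdh5 and Ehd3 lay higher in HIF2aM3 without overlap. Tie1, Plvap, Cldn5 and Eng overlapped, with log2 differences of 0.16, 0.07, -0.01 and 0.24. No share of all genes on this scale is given, so the number of genes without overlap has no background. This scale too was chosen after the values were seen. Of 12 leukocyte genes 11 lay above 0, with a median log2 fold change of 0.25. Leukocyte genes, 1 of 12 called (Csf1r, the macrophage growth factor receptor, log2 fold change 0.58 ± 0.104, edgeR adjusted p = 0.0349), summed to 267.6, 614.4 and 395.9 CPM in WT and 474.2 to 579.7 CPM in HIF2aM3. WT 2 thus had the highest WT sum of identity, podocyte and leukocyte genes alike, and the part of the podocyte and leukocyte signal in the genotype difference was not tested.

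The 2 kidneys of an animal gave a second view of this spread. In WT 1 all 10 genes were higher in kidney 2, by 0.08 to 0.54 on the log2 scale (median 0.39). In that animal 12 of 12 podocyte genes (median 0.22) and 10 of 11 leukocyte genes (median 0.39) were also higher in kidney 2, beside 8203 of 16054 genes overall. In WT 3 all 10 were lower in kidney 2, with ratios of -0.33 to -0.09 (median -0.14), while 9 of 12 podocyte and 7 of 11 leukocyte genes were higher there. The part of these cells in the kidney pattern was not tested. WT 2 and the HIF2aM3 animals had medians between 0.01 and 0.04. Over all 6 animals, with the animal as a block, 0 of the 10 genes were called between kidneys by edgeR and 0 had an unadjusted p under 0.05, beside 0.0893% of 19034 genes called. The smallest unadjusted p was 0.104, for Cdh5. The difference between kidneys did not depend detectably on genotype: 0 genes were called for that interaction by edgeR, and 588 of 19034 had an unadjusted p under 0.05.

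**Figure D4:**
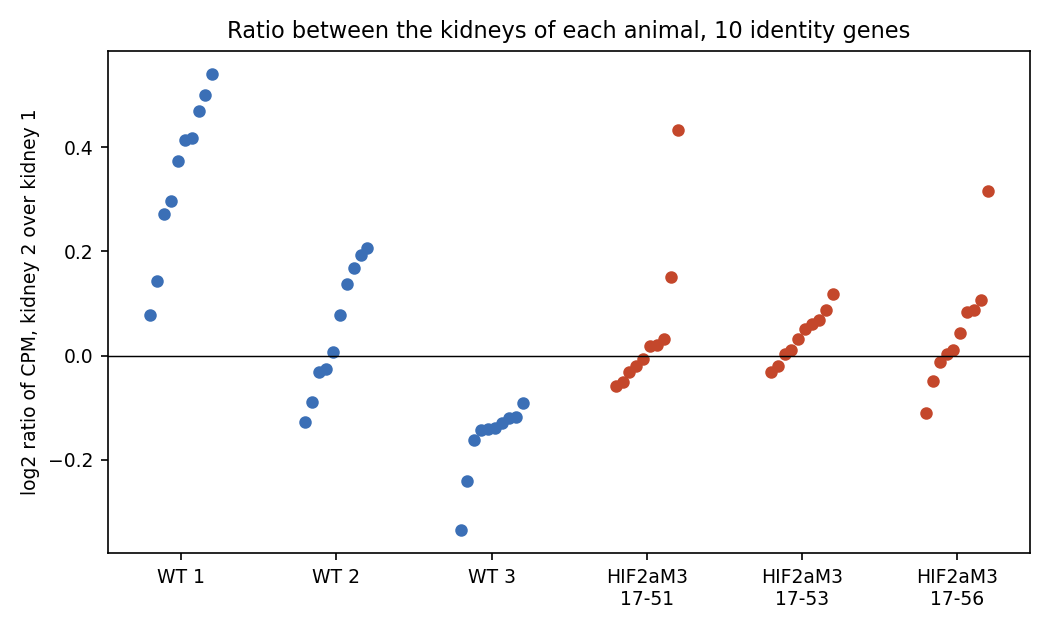
Log2 ratio of CPM in kidney 2 over kidney 1 for the 10 identity genes in each animal, 1 point per gene. All points of WT 1 lie above 0 and all of WT 3 below 0, and the other animals scatter around 0.

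A wider list of endothelial genes had a like median. Of 30, 2 rose and 0 fell, beside 1.93% and 1.82% of all genes, 28 lay above 0, and their median log2 fold change was 0.36. DESeq2 called 15 higher, beside 5.61% of all genes, and 20 had an unadjusted p under 0.05, a count without background. The share of all genes that DESeq2 called lower is not given, here or for the lists below. In 18 of the 30 all HIF2aM3 animals lay above all WT animals, beside 15.5% of all genes. Without WT 2, 21 of the 30 were called higher, beside 4.64% of all genes. Without any 1 other animal 0 were called higher, and without the second kidney of WT 2 alone 5. With voom the count was 17 and with the 12 libraries as replicates 19, settings that also called more genes overall. Kdr, the main VEGF receptor of endothelium, stood at 71.4, 94.8 and 72.0 CPM in WT and 133.8, 132.4 and 121.0 CPM in HIF2aM3. It rose by 0.70 ± 0.115 (log2, edgeR adjusted p = 0.0302), and Cd93, a C-type lectin-like receptor, rose by 0.43 ± 0.0885 (edgeR adjusted p = 0.0466). Flt1, the other VEGF receptor, had a log2 fold change of 0.37 ± 0.135 and did not pass (edgeR adjusted p = 0.15). Of the VEGF ligands and receptors, 2 of 10 rose and 0 fell, the second being the co-receptor Nrp2 (log2 fold change 0.90 ± 0.134, edgeR adjusted p = 0.0265). Vegfa stood at 241.0, 266.4 and 248.5 CPM in WT and 352.1, 297.3 and 217.6 CPM in HIF2aM3, a range that spans the WT animals, with edgeR adjusted p = 0.488.

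Beside Erg, 13 of 14 further endothelial transcription factors were tested, and 1 rose and 1 fell (median log2 fold change 0.33). Mef2c, a MADS-box factor that also acts in muscle, rose by 0.69 ± 0.137 (edgeR adjusted p = 0.0432). Gata2 fell by 0.66 on the log2 scale, with an SE of 0.134 (edgeR adjusted p = 0.0479). Gata2 is also known in collecting duct cells, and collecting duct genes were lower in the same animals: 5 of 12 fell and 0 rose, and their sum was 1032 to 1036 CPM in WT and 661.5 to 830.9 CPM in HIF2aM3. The part of collecting duct RNA in the Gata2 value was not tested. Fli1, the ETS factor closest to ERG, was at 8.27, 8.95 and 8.12 CPM in WT and 9.78, 10.3 and 10.4 CPM in HIF2aM3, and did not pass (log2 fold change 0.26 ± 0.0746, edgeR adjusted p = 0.0875). It was named after its values were seen.

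None of the partner pathways of the receptors and junctions had a gene called by edgeR. Of 10 genes around angiopoietins and TIE receptors 8 lay above 0, with a median log2 fold change of 0.16, 3 had an unadjusted p under 0.05, and DESeq2 called 2 higher. The smallest p belonged to Svep1, a matrix protein that binds TIE1 (0.80 ± 0.17, edgeR adjusted p = 0.0522), while the ligands Angpt1 and Angpt2 had log2 fold changes of 0.19 ± 0.1 and 0.30 ± 0.153. Of 16 genes of the endoglin and ALK1 pathway 14 were tested, with 7 above 0, a median of 0.01, 3 at an unadjusted p under 0.05 and 0 called by DESeq2. Bmpr2, the type II BMP receptor, came closest (0.21 ± 0.0747, edgeR adjusted p = 0.146). Of 14 genes of cell junctions 12 lay above 0, with a median of 0.06, 3 had an unadjusted p under 0.05, and DESeq2 called 1. Their WT means ran from 5.76 CPM (Icam2) to 650.7 CPM (Cgnl1), beside 34.43 CPM for Cdh5. The part of cells other than endothelium in these values was not tested, so the median does not describe endothelial junctions alone. Ctnnd1, the p120 catenin that binds VE-cadherin, had a log2 fold change of 0.21 ± 0.0517 (edgeR adjusted p = 0.0632).

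Lists for vessel types gave no edgeR call either, and at an unadjusted p under 0.05 there were 1 glomerular, 1 arterial, 0 venous or activated, 2 lymphatic and 2 vasa recta genes. DESeq2 called 1 arterial and 2 lymphatic genes and none of the others. The 6 glomerular endothelium genes had a median log2 fold change of -0.15, with 3 above and 3 below 0. They summed to 117.0, 114.2 and 81.4 CPM in WT and 81.1 to 87.6 CPM in HIF2aM3. Pi16 had the smallest p (-0.48 ± 0.171, edgeR adjusted p = 0.143). Ehd3, of the same cells, had a positive difference that did not pass (above), so the markers of glomerular capillaries did not share a direction. The 10 arterial genes had a median of 0.13 (smallest p for the kinase gene Bmx, 0.91 ± 0.238, adjusted p = 0.0744 by edgeR). For 7 of 8 venous or activated endothelium genes tested the median was 0.13. Vcam1, an adhesion molecule of activated endothelium, was at 47.5 CPM in animal 17-56 and between 14.4 and 20.03 CPM in the other 5 animals (edgeR adjusted p = 0.245). The 4 of 6 lymphatic genes tested had a median of 0.31 and did not share a direction. Reln, a secreted glycoprotein, had the smallest p (0.92 ± 0.223, edgeR adjusted p = 0.064). Prox1, the lymphatic transcription factor, had -0.42 ± 0.111 with all HIF2aM3 animals below all WT animals (edgeR adjusted p = 0.0775). The part of cells other than lymphatic endothelium in the Prox1 value was not tested, so it does not describe lymphatic vessels alone. Of 3 vasa recta genes, Slc14a1, the urea transporter of descending vasa recta, had the smallest p (1.51 ± 0.453, edgeR adjusted p = 0.0988) at under 1 CPM in every animal. Aqp1, a water channel that proximal tubules also carry, stood at 699.6 to 750.1 CPM in WT and 594.3 to 672.4 CPM in HIF2aM3, with a log2 fold change of -0.18 ± 0.0711 (edgeR adjusted p = 0.171). Prox1 and Aqp1 were named after their values were seen.

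**Figure D5:**
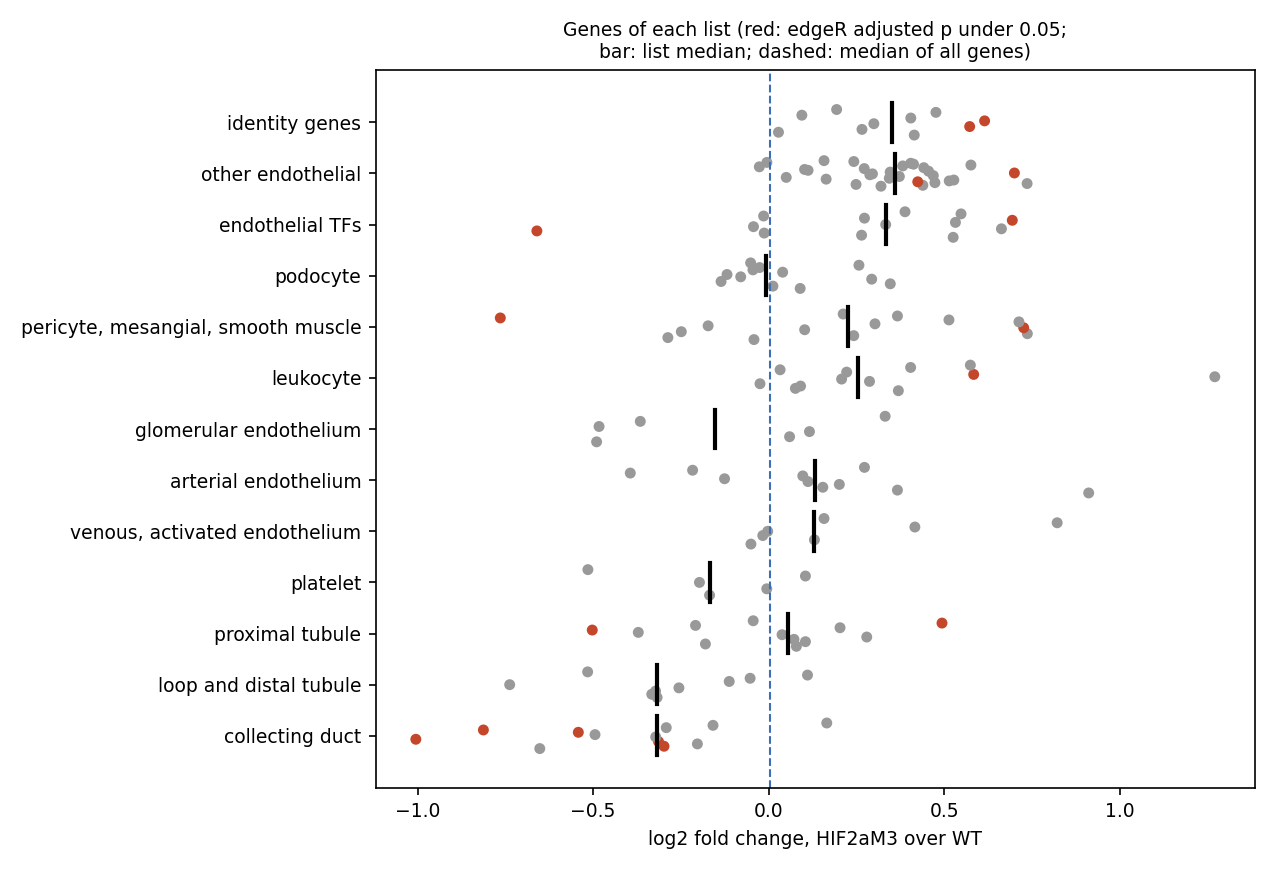
Log2 fold change, HIF2aM3 over WT, of the tested genes of 13 lists, 1 point per gene, red where the edgeR adjusted p is under 0.05, with a bar at each list's median and a dashed line at the median of all genes (0.005). The identity genes, other endothelial genes and endothelial transcription factors have medians of 0.35, 0.36 and 0.33. The leukocyte genes have a median of 0.25 and the pericyte, mesangial and smooth muscle genes 0.23, the podocyte genes -0.01 and the collecting duct genes -0.32.

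Cells that wrap or neighbour the vessels were mixed. Of 14 pericyte, mesangial and smooth muscle genes 1 rose and 1 fell, with a median of 0.23. At an unadjusted p under 0.05, 6 were higher and 2 lower, and DESeq2 called 3 higher and 1 lower. In 5 of the 14 all HIF2aM3 animals lay above all WT animals (15.5% of all genes), and in 1 all lay below (16.5% of all genes). Itga8, an integrin of mesangial cells, rose by 0.73 ± 0.141 (edgeR adjusted p = 0.0431), and Ren1, renin, fell by 0.76 on the log2 scale with an SE of 0.0928 (edgeR adjusted p = 0.0149). Among 12 proximal tubule genes, which summed to 35330 to 42080 CPM in WT and 38710 to 41670 CPM in HIF2aM3 in this tissue labelled as cortex, 1 rose and 1 fell, with a median of 0.06. Of 9 genes of the loop and distal tubule 0 were called by edgeR and 1 by DESeq2, 4 had an unadjusted p under 0.05, 8 lay below 0, and the median was -0.32. No gene on any of these lists that has a row was at 0 reads.

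The endogenous mouse gene of the transgene's family, Epas1, is itself abundant in endothelium and was at 196.9, 237.6 and 176.9 CPM in WT and 277.7, 276.0 and 248.0 CPM in HIF2aM3. All HIF2aM3 animals lay above all WT animals, with a log2 fold change of 0.39 ± 0.11 that did not pass (edgeR adjusted p = 0.0881). Whether reads of the transgene are counted under Epas1 was not tested, so this value does not check the labels.

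Among 15290 other genes of at least 1 CPM, those with the pattern most like the mean of the 10 over the 12 libraries were found by root mean square distance of centred log2 CPM. The nearest 8 were Plpp1, Mmrn2, Dkk2, Tcim, Zeb1, Mrvi1, Plpp3 and Prex1, at distances of 0.0649 to 0.076, where the median of all candidates was 0.304. The 10 genes themselves lay between 0.0617 (Cdh5) and 0.203 (Cldn5) from their own mean, of which each is a part. Of these 8, Mmrn2 was on the list of other endothelial genes. Epas1 ranked 9, Flt1 23 and Kdr 1249, and 14 of 30 other endothelial genes were among the nearest 100. With the genotype means subtracted, 2 of the 8 nearest genes (Plpp1 and Dkk2) were again among the nearest 8. The points share libraries and the genes have a likeness of pattern only.

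Library totals ran from 24032148 to 43499743 reads, apart from the second kidney of 17-51 with 4161829. Summed over both kidneys an animal held 32392033 to 85018818 reads. The fewest reads of any of the 10 genes in a library were 33, for Cldn5.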

How the data were processed

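RNA-seq of 12 kidney cortex libraries (both kidneys of 3 WT and 3 HIF2aM3 mice) was used. Library preparation used an Illumina TruSeq kit, per the labels' protocols, and reads were aligned to mm9, per the submitters' processing notes. For the aligner, counter, annotation and strand setting nothing is stated (not given in the sources used). The authors deposited unscaled read counts per gene, per the file headers. RPKM were made by the authors from counts with about 1 read added, a property read from the values, and were used for levels between genes. The deposited t statistics (a score), the ratio of means and the mean count per group (a signal), made by the authors per the file headers, were left aside. The log2 fold change and the q-values of the authors' deposited table were used only for comparison. Symbols matched 24630 of 27412 gene IDs, and the 2782 without one held 1.18% of counts.

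The animal was the replicate, so both kidneys' counts were added. Whether animals shared litters is not stated. They were tested on the whole table with the two-sided quasi-likelihood test of edgeR 4.0.16 (R 4.3.3, filterByExpr, TMM, robust), with Benjamini-Hochberg adjustment over all genes tested and a threshold of 0.05. SE is the absolute log2 fold change over the root of F. CPM use TMM factors. Counts of the kidneys of each animal differed beyond sampling noise (chi-square over its degrees of freedom at least 1.77). Kidneys were compared with the animal as a block. The test was tested on simulated data.

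The 10 genes and all lists were chosen with earlier results of these data known. Named genes were the 10, Epas1, Kdr, Flt1, up to 3 called genes per list (if fewer than 2 were called, the gene of smallest p), and the 8 nearest in pattern. Fli1, Prox1 and Aqp1, and genes given as extremes of a list, were named after their values were seen. Others, such as ligands and receptors set beside their partners, were named for their role. Alternatives were DESeq2 1.42.0, limma 3.58.1 (voom, and RPKM with pseudocounts), other scalings and filters, single kidneys, and animals left out. Leaving out each library other than the shallow one and removing GC and length trends (lowess span 0.3) were added after seeing the data.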

Additional observations from a re-analysis of the deposited data

Results flagged for a closer look

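Erg in the second kidney of animal 17-51 stood at 16.68 CPM, apart from the other HIF2aM3 libraries at 12.35 to 13.45 CPM. The gap to the nearest of them was 0.747 of the whole range, above Dixon's 95% critical value for 6 samples. It was the only such case in 20 sets of 6 libraries examined (10 genes in each genotype), and chance gives about 1 in 20. The 2 kidneys of an animal are not independent samples, although the critical value assumes that they are. This was the shallowest library, with 4161829 reads, and the value rests on 71 reads, with an exact 95% Poisson interval of 13.03 to 21.04 CPM that covers counting error only. Without it, Emcn had a log2 fold change of 0.57 ± 0.116 (edgeR adjusted p = 0.0485).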

How the results depend on the processing

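The number of identity genes called higher was 2. It was 6 with the 12 libraries as replicates (4829 calls over all genes, beside 733), 6 with DESeq2 (2038 over all genes), 5 with voom and the animal as a random block (2795 over all genes), and 1 with GC and length trends removed. It was 0 with kidney 1 only, 0 with kidney 2 only, 0 with library size alone, and 0 with limma on log2(RPKM + 0.1), 0 on log2(RPKM + 1) and 0 on log2(RPKM + 5). Leaving out 1 animal gave 0 to 8, the 8 being without WT 2. Leaving out 1 library gave 0 to 2, with 0 without WT 1 kidney 2 and 0 without WT 3 kidney 1, and 1 without WT 2 kidney 1 and 1 without 17-56 kidney 1. The cause was not tested, beyond fewer samples in the settings that leave some out. The median log2 fold change stayed between 0.16 and 0.50 over 32 settings, and 0 genes were called lower in any of them. Of 320 values of single genes, 268 kept direction and side of the threshold, 29 lost the call, 17 gained it and 6 reversed. The reversed ones were Cldn5 at -0.0662 with kidney 1 only, without WT 1, without WT 3, without 17-51 (range over animals left out -0.0915 to 0.1795) and at -0.0259 without 17-56 kidney 2, and Plvap without WT 3 (range -0.0886 to 0.3265). No paired analysis was possible because the animals of the genotypes share no numbers. Over all genes, calls ran from 11 (without 17-53) to 1549 (without WT 2) when an animal was left out, beside the 733 with all animals. Depth limits the shallow library most, and 3 animals per genotype limit the precision of every test.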
